A study of Homo sapiens with 18 samples.

Results

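Mitochondrial ribosomal protein genes are the nuclear genes whose products form the protein part of the ribosome inside mitochondria. They were taken as the protein-coding genes whose symbol is MRPL or MRPS followed by a digit, with pseudogenes left out, and 78 genes met that rule. Of these, 71 passed the low-count filter, among 16794 genes tested in all. The symbols MRPL and MRPS name the large (39S) and small (28S) subunit, with 3 exceptions among the 71: MRPS30 and MRPS18A belong to the large subunit, and MRPS36 was later placed in the oxoglutarate dehydrogenase complex. That left 47 genes of the large subunit and 23 of the small subunit.

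The RNA came from BxPC-3, an established cell line of human pancreatic adenocarcinoma that was grown in RPMI medium with fetal bovine serum, penicillin-streptomycin and Plasmocin. Cells received hepatocyte growth factor (HGF, the ligand of the receptor MET) at 80 ng/ml, macrophage-stimulating protein (MSP, the ligand of the receptor RON) at 100 ng/ml, or phosphate-buffered saline as vehicle, and were collected after 1 h or 4 h. The 6 groups were HGF 1 h, MSP 1 h, vehicle 1 h, HGF 4 h, MSP 4 h and vehicle 4 h, with 3 libraries each and 18 libraries in all. Nothing in the labels says that the triplicates were separate cultures, and the p-values therefore measure the spread between libraries, which may be technical. The labels name no genetic change in any group, and all groups were the same single line.

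Total counts per library ran between 30556613 and 48477215, and no pair of replicates agreed within sampling noise. The MSP 1 h libraries stood apart from each other: chi-square per degree of freedom over genes was 6.97 to 19.3 for their pairs, highest for replicates 2 and 3, and 2.81 to 5.51 for the pairs of the other 5 groups. The labelled epithelial origin was visible in all 18 libraries: the 7 markers KRT7, KRT8, KRT18, KRT19, EPCAM, CDH1 and MUC1 each had at least 1250 counts per library. Among 12 markers of fibroblasts, leukocytes and endothelium the highest count was 512, for the collagen gene COL1A1, while PTPRC and PDGFRB, defining genes of leukocytes and of stromal cells, had at most 4. Of the 12, 4 failed the low-count filter, and of the other 8, 1 was higher and 2 were lower in HGF than in vehicle libraries at 4 h (0 and 6 with library totals, with a TMM median log2 fold change of -0.53), and their part in the results was not tested.

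Mitochondrial ribosomes translate only the mRNAs of the mitochondrial genome, which encode core subunits of the respiratory chain and of ATP synthase. Their RNA is made from mitochondrial DNA, whereas every one of their proteins is encoded in the nucleus, translated in the cytosol and imported. Some of these proteins have counterparts in bacterial ribosomes and others were gained in the eukaryotic lineage. Nuclear respiratory factor 1 (NRF1), the ETS-family factor GABP, YY1 and MYC are known regulators of nuclear genes for mitochondrial proteins.

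Promoter sequences of the 2 members with the largest rise and the 2 with the largest fall 4 h after HGF are shown here, because the values of these genes open the HGF comparison. Each run is the 250 bases upstream of the RefSeq gene start on the strand of the gene (GRCh38.p14). The coordinates are chr5:1799838-1800087 (minus strand) for MRPL36, chr17:57850045-57850294 (minus) for MRPS23, chr6:30617590-30617839 (plus) for MRPS18B and chr7:141014953-141015202 (minus) for MRPS33. In GENCODE 29 the genes themselves span chr5:1798386-1801366 (MRPL36, ENSG00000171421), chr17:57834781-57850056 (MRPS23, ENSG00000181610), chr6:30617709-30626395 (MRPS18B, ENSG00000204568) and chr7:141002610-141015228 (MRPS33, ENSG00000090263) on GRCh38, and none of the 4 is overlapped by another gene's exons on either strand. The RefSeq and GENCODE starts differ. The runs of MRPL36 and MRPS33 lie inside the GENCODE spans, and those of MRPS23 and MRPS18B reach into them. Capitals mark matches, on either strand, to 5 searched motifs: GCGCA, any base and GCGC in a row for NRF1, CCGGAAG of GABP and other ETS factors, AANATGGCG of YY1, the E-box CACGTG bound by MYC, and GGGCGGG of SP factors. None of these letter strings contains another.
MRPL36: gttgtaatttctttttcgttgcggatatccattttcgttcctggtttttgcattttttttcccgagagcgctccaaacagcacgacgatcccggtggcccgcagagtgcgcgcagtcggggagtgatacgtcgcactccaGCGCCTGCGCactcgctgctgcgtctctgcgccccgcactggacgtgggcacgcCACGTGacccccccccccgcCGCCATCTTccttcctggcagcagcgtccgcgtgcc
MRPS23: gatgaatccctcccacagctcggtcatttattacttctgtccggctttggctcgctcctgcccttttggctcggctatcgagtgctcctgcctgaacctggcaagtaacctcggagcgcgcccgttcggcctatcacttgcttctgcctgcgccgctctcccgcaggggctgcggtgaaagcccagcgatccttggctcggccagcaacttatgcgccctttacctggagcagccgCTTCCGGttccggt
MRPS18B: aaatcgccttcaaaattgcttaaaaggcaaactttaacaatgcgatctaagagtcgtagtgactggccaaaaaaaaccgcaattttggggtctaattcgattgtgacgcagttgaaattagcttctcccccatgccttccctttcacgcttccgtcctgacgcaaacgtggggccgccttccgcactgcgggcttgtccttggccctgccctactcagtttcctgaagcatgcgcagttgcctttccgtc
MRPS33: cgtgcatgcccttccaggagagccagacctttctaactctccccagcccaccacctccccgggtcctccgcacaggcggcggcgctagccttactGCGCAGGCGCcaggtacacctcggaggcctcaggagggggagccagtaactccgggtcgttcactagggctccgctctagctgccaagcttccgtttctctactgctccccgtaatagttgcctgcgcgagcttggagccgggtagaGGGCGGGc
Of these 4 runs, MRPL36 held the NRF1, E-box and YY1 letters, MRPS23 the ETS letters close to the start, MRPS33 the NRF1 and SP letters, and MRPS18B none of the 5. The 50 bases after the start, not printed, held the YY1 letters for MRPS18B and the ETS letters for MRPS33. Windows of 300 bases (250 before and 50 after the start) were found for 62 of the 71 tested members. CCGGAAG was present in 26 of these 62 windows (41.9%), in 10.7% of all 27305 RefSeq windows and in 18.4% of the windows of tested protein-coding genes. AANATGGCG was present in 25.8% of the members' windows, in 3.37% of all windows and in 6.63% of those of tested protein-coding genes. For the other 3 motifs the members' share was near that of tested protein-coding genes: the NRF1 letters 11.3% and 11.1%, CACGTG 9.68% and 9.72%, and GGGCGGG 48.4% and 53.4%. A match is a description of letters in the window and says nothing about binding in these cells.

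Not every member could be measured. MRPL30, MRPS17, MRPS24 and MRPL38 had a count of 0 in every library, MRPS6 had 0 to 1, MRPL53 had 0 to 2 and MRPL12, a protein of the ribosomal stalk, had 0 to 3. An 8th gene, MRPS28, had 3 to 20 counts and passed the filter. All 8 of these genes are overlapped on the same strand by another annotated gene in GENCODE 29, such as CCDC142 for MRPL53 and URGCP-MRPS24 for MRPS24, and between 49.3% (MRPS6) and 100.0% (MRPL53 and MRPS17) of their coding bases are shared. Of the other 70 members, 8 are overlapped on the same strand, and among those 70 only MRPL46 (38 to 102 counts) shares more than 50 percent of its coding bases, at 64.0%. Whether the overlap set these counts was not tested, and a count of 0 for these genes is not reported as absence of expression. On the opposite strand, 28 of the 71 tested members are overlapped by another gene, and without a stated strand setting of the counting their values could hold reads of the partner.

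**Figure D1:**
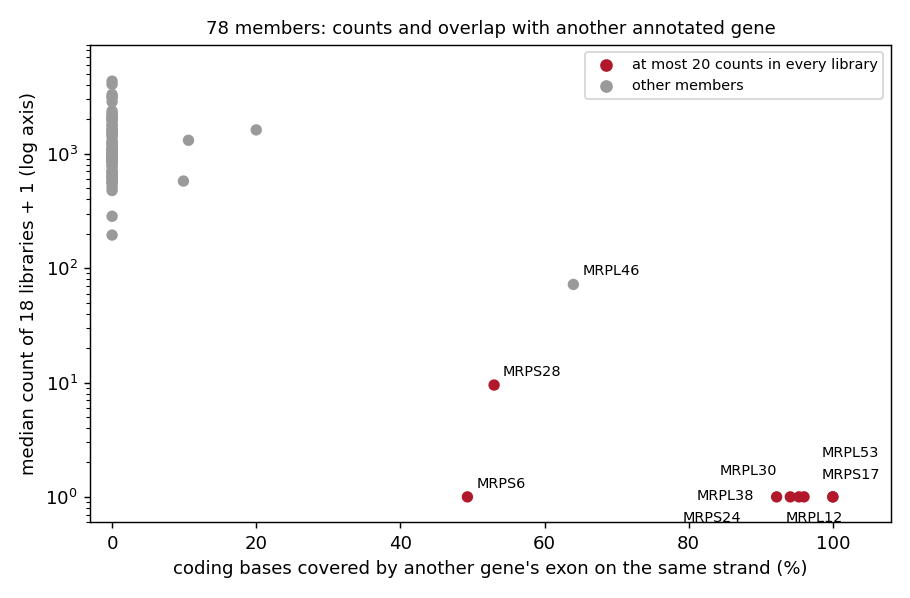
Median count over the 18 libraries plus 1 (vertical, log axis) against the percentage of coding bases that another gene's exon covers on the same strand (horizontal), 1 point for each of the 78 members. The 8 red points, with at most 20 counts in every library, all lie at 49.3% or more, and MRPL46 at 64.0% is the remaining labelled point.

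Each level is in CPM, a count divided by the size of its library, after scaling by TMM factors. These factors rest on the assumption that most genes do not change. For HGF against vehicle at 4 h, 67.9% of all genes were called under this scaling. Of the 71 members, 65 had a mean CPM between 10 and 100 over the 18 libraries, 2 were above 100 and 4 were below 10. Per kilobase of exon, the median member had 11.3 CPM. The highest levels per kilobase were 58.9 CPM for MRPL51, 50.8 CPM for MRPS34 and 47.1 CPM for MRPL3, whose bacterial counterpart lies near the peptidyl transferase centre. Exons of NCAPD2 cover 31.3% of MRPL51 on the opposite strand. The lowest were 0.141 CPM per kilobase for MRPS28, 0.308 for MRPL46 and 1.77 for MRPL23, whose counterpart lies at the exit of the peptide tunnel. The first 2 of these are the tested genes with the most coding overlap. Within groups the 3 libraries gave close levels for most members. The coefficient of variation over the libraries, as a median over members, was 3.38% in HGF 4 h, 4.61% in MSP 4 h and 4.29% in vehicle 4 h. It was 4.00% in HGF 1 h, 5.67% in MSP 1 h and 3.65% in vehicle 1 h.

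At 4 h, most mitochondrial ribosomal protein genes were higher in HGF than in vehicle libraries under TMM scaling. Of the 71 members, 44 were higher and 9 were lower in HGF than in vehicle libraries (edgeR's quasi-likelihood test, Benjamini-Hochberg adjusted p under 0.05 over all 16794 genes). Across all genes tested, 67.9% were called, 33.1% higher and 34.8% lower, and among genes with a mean of 10 to 100 CPM, where most members lie, 44.8% were higher and 36.2% lower. The members' shares were 62.0% higher and 12.7% lower. Their median log2 fold change was 0.25, against -0.059 for all genes, and 56 of 71 members were above 0. No member changed by more than 2-fold. In 47 members every HGF library was above every vehicle library, and in 10 every HGF library was below. Such separation was not counted over all genes, so these counts have no background share.

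These directions are relative to TMM scaling. With scaling by library totals alone the median of all genes moved to -0.35, that of the members to -0.039, and 23 members were higher and 26 lower, against 21.2% higher and 52.0% lower among all genes. All 23 members called higher with library totals were also called higher with TMM factors, and all 9 called lower with TMM factors were also called lower with library totals. Members took 0.277 ± 0.0015% of all counts in HGF 4 h, 0.271 ± 0.0047% in MSP 4 h and 0.265 ± 0.0068% in vehicle 4 h libraries (SD, n = 3 each). In the same libraries the share of counts from the mitochondrial genome was 6.17 ± 0.053% in HGF, 8.39 ± 0.032% in MSP and 8.82 ± 0.14% in vehicle, and its part in the members' result was not tested. In bulk RNA, fewer cells with an mRNA and less of it per cell cannot be told apart.

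**Figure D2:**
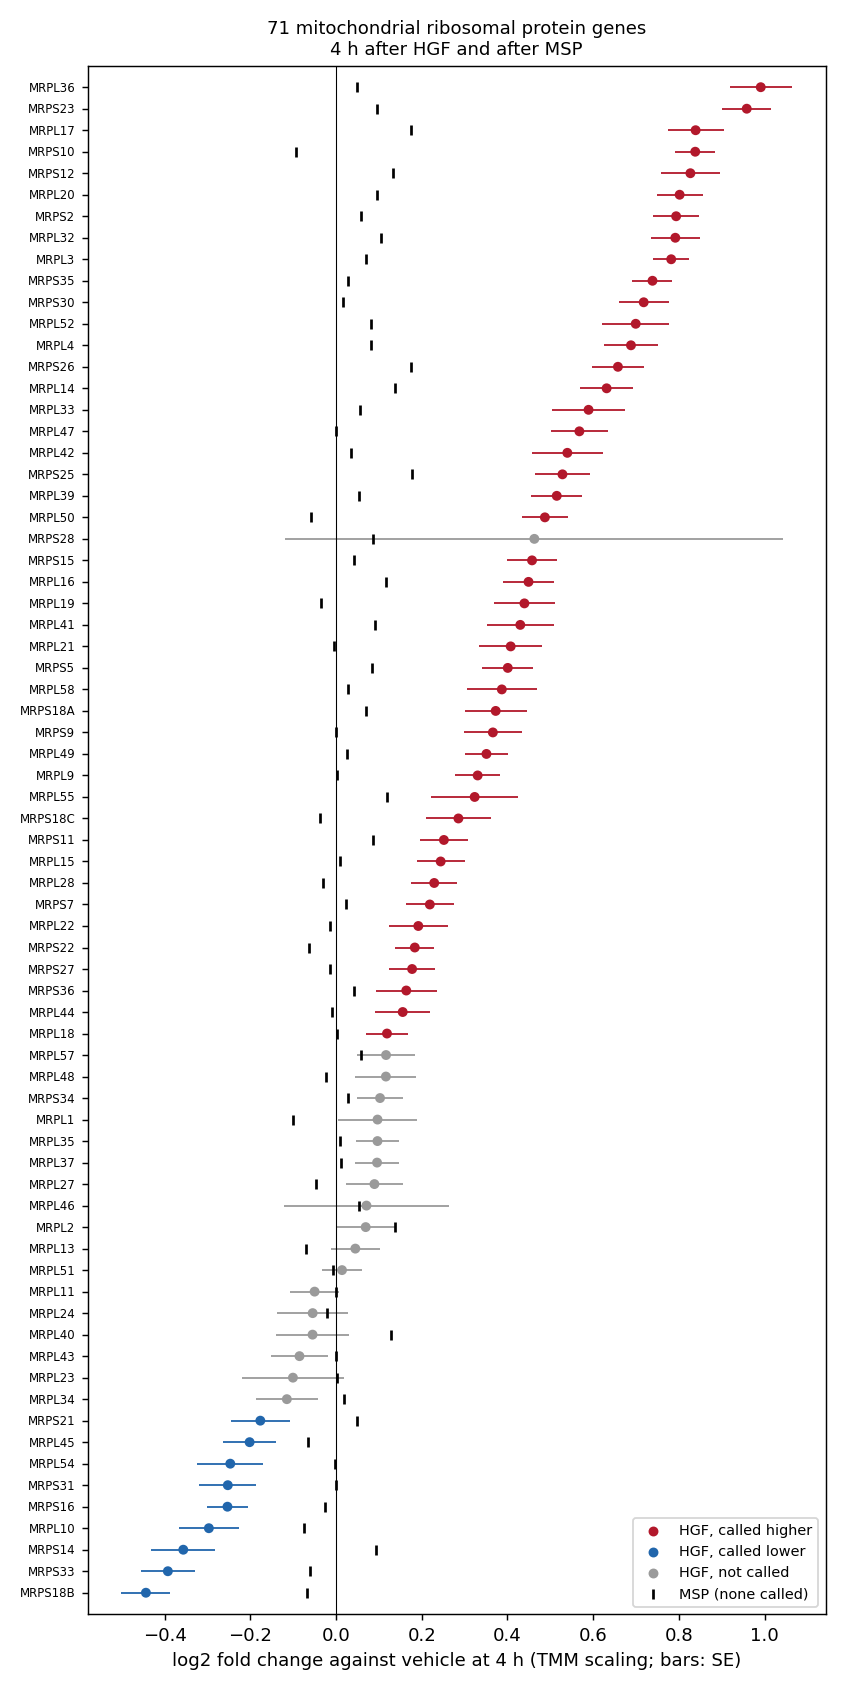
Log2 fold change against vehicle at 4 h (TMM scaling) of the 71 members, for HGF (points, bars are SE) and for MSP (black ticks), sorted by the HGF value. The HGF values run from 0.99 (MRPL36) to -0.44 (MRPS18B) with 44 called higher and 9 called lower, while the MSP values lie between -0.10 and 0.18 with none called.

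The 8 largest rises among members with separated libraries came from both subunits. MRPL36, the counterpart of bacterial L36, had 35.8, 34.5 and 33.9 CPM in HGF 4 h libraries, against 17.4, 17.5 and 17.5 CPM in vehicle 4 h libraries. All HGF libraries were far above all vehicle libraries, with a gap many times the spread within either group. The fold change was 1.99 (log2 0.99 ± 0.073 SE, edgeR adjusted p = 2.4e-13). MRPS23, a small-subunit protein with no bacterial counterpart, had 47.2, 50.3 and 46.0 CPM with HGF, against 24.75, 24.97 and 24.09 CPM with vehicle. The groups were again fully separated, and the fold change was 1.94 (log2 0.96 ± 0.057 SE, edgeR adjusted p = 1.56e-15). MRPS12, the counterpart of the bacterial decoding-centre protein S12, had 71.5, 72.8 and 71.6 CPM with HGF, against 42.2, 39.1 and 40.4 CPM with vehicle. These HGF libraries differed from each other by far less than from vehicle (log2 0.83 ± 0.068 SE, edgeR adjusted p = 7.49e-12).

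MRPS10, the counterpart of S10 in the head of the bacterial small subunit, had 86.3, 88.8 and 90.8 CPM with HGF, against 48.1 to 50.6 CPM in the 3 vehicle libraries (log2 0.84 ± 0.047 SE). MRPL17, whose bacterial counterpart sits near the tunnel exit, had 42.2, 42.3 and 42.2 CPM with HGF, against 25.7, 21.0 and 24.1 CPM with vehicle (log2 0.84 ± 0.065 SE). In both genes the HGF libraries stood above all vehicle libraries, and for MRPL17 the spread lay almost wholly among the vehicle libraries. MRPL20, the counterpart of an early assembly protein of the Escherichia coli large subunit, averaged 75.6 ± 2.1 CPM with HGF and 43.4 ± 2.1 CPM with vehicle (SD, n = 3 each; log2 0.80 ± 0.054 SE). MRPS2 averaged 107.6 ± 8.6 CPM with HGF and 62.1 ± 2.8 CPM with vehicle (log2 0.79 ± 0.053 SE). MRPL32, whose precursor is cleaved by the mitochondrial m-AAA protease before assembly, averaged 45.4 ± 0.90 CPM with HGF and 26.2 ± 1.5 CPM with vehicle (log2 0.79 ± 0.057 SE). The edgeR adjusted p of these 5 genes lay between 2.82e-16 and 9.62e-13, and all 8 genes stayed higher with library totals, at log2 values of 0.50 to 0.70.

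The other 36 members called higher lay between 0.12 (MRPL18) and 0.78 (MRPL3) on the log2 scale. MRPS25, which was lower in HGF than in vehicle libraries at 1 h, averaged 35.3 ± 1.9 CPM in HGF 4 h and 24.4 ± 0.76 CPM in vehicle 4 h libraries (log2 0.53 ± 0.065 SE, edgeR adjusted p = 1.88e-08). The peptide-tunnel protein gene MRPL4 averaged 57.7 ± 2.6 CPM with HGF and 35.8 ± 0.97 CPM with vehicle (log2 0.69 ± 0.063 SE). MRPS26, a small-subunit gene with no bacterial counterpart, averaged 50.8 ± 1.7 CPM with HGF and 32.2 ± 0.94 CPM with vehicle (log2 0.66 ± 0.061 SE). In these 3 genes every HGF library was above every vehicle library, and they stayed called higher with library totals at 0.24 to 0.40.

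The members with the highest levels per kilobase did not respond alike. MRPL3 averaged 209.5 ± 6.8 CPM in HGF 4 h and 122 ± 5.8 CPM in vehicle 4 h libraries (log2 0.78 ± 0.042 SE, edgeR adjusted p = 9.41e-17). MRPL51 averaged 94.98 ± 2.9 CPM with HGF and 94.1 ± 3.8 CPM with vehicle, with overlapping libraries (log2 0.014 ± 0.047 SE, edgeR adjusted p = 0.81). MRPS34, in which mutations cause Leigh syndrome, averaged 64.5 ± 1.9 CPM with HGF and 60.1 ± 0.86 CPM with vehicle, and its HGF libraries were all higher without passing the test (log2 0.10 ± 0.054 SE, edgeR adjusted p = 0.0956). With library totals MRPL51 and MRPS34 were called lower, at -0.28 and -0.19. The 3 members with the lowest levels per kilobase, MRPS28, MRPL46 and MRPL23, had overlapping libraries and did not pass the test.

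Falls were smaller. Of the 9 members called lower, 6 were among the 23 small-subunit genes (26.1%) and 3 among the 47 large-subunit genes (6.38%). Across all genes tested 34.8% were lower. With library totals 8 small-subunit and 18 large-subunit genes were called lower, against 52.0% of all genes. MRPS18B had 37.9, 34.4 and 34.7 CPM in HGF 4 h libraries, against 51.7, 46.4 and 47.4 CPM in vehicle 4 h libraries. All HGF libraries were below all vehicle libraries, and MRPS18B fell by 0.44 on the log2 scale (SE 0.057, edgeR adjusted p = 4.83e-08). MRPS33, a small-subunit protein with no bacterial counterpart, had 25.1, 24.5 and 23.5 CPM with HGF, against 30.8, 31.8 and 33.3 CPM with vehicle. It fell by 0.39 on the log2 scale (SE 0.062, edgeR adjusted p = 1.93e-06), with no overlap of the groups. MRPS14, the counterpart of bacterial S14, had 13.28, 12.81 and 12.99 CPM with HGF, against 16.7, 15.1 and 18.1 CPM with vehicle. The vehicle libraries were the more spread of the groups, and the fall was 0.78-fold (log2 -0.36 ± 0.075 SE, edgeR adjusted p = 0.000103).

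The other named falls were at most 0.30 on the log2 scale. MRPS16, in which inherited mutations cause a respiratory chain disorder, averaged 48.3 ± 0.85 CPM with HGF and 57.5 ± 1.5 CPM with vehicle (log2 -0.25 ± 0.047 SE, edgeR adjusted p = 2.3e-05). MRPS31 averaged 21.3 ± 1.4 CPM with HGF and 25.4 ± 1.6 CPM with vehicle (log2 -0.25 ± 0.066 SE, edgeR adjusted p = 0.00127). MRPL54 averaged 13.1 ± 1.4 CPM with HGF and 15.5 ± 0.28 CPM with vehicle (log2 -0.25 ± 0.077 SE, edgeR adjusted p = 0.006). One HGF library of MRPL54, replicate 3 at 11.5 CPM, was lower than the other two at 13.9 CPM, and the call was lost without it. The 9 falls kept their direction and their call with library totals, at -0.49 to -0.73 for MRPS18B, MRPS33, MRPS14, MRPS16, MRPS31, MRPL54, MRPL10 and MRPL45.

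**Figure D3:**
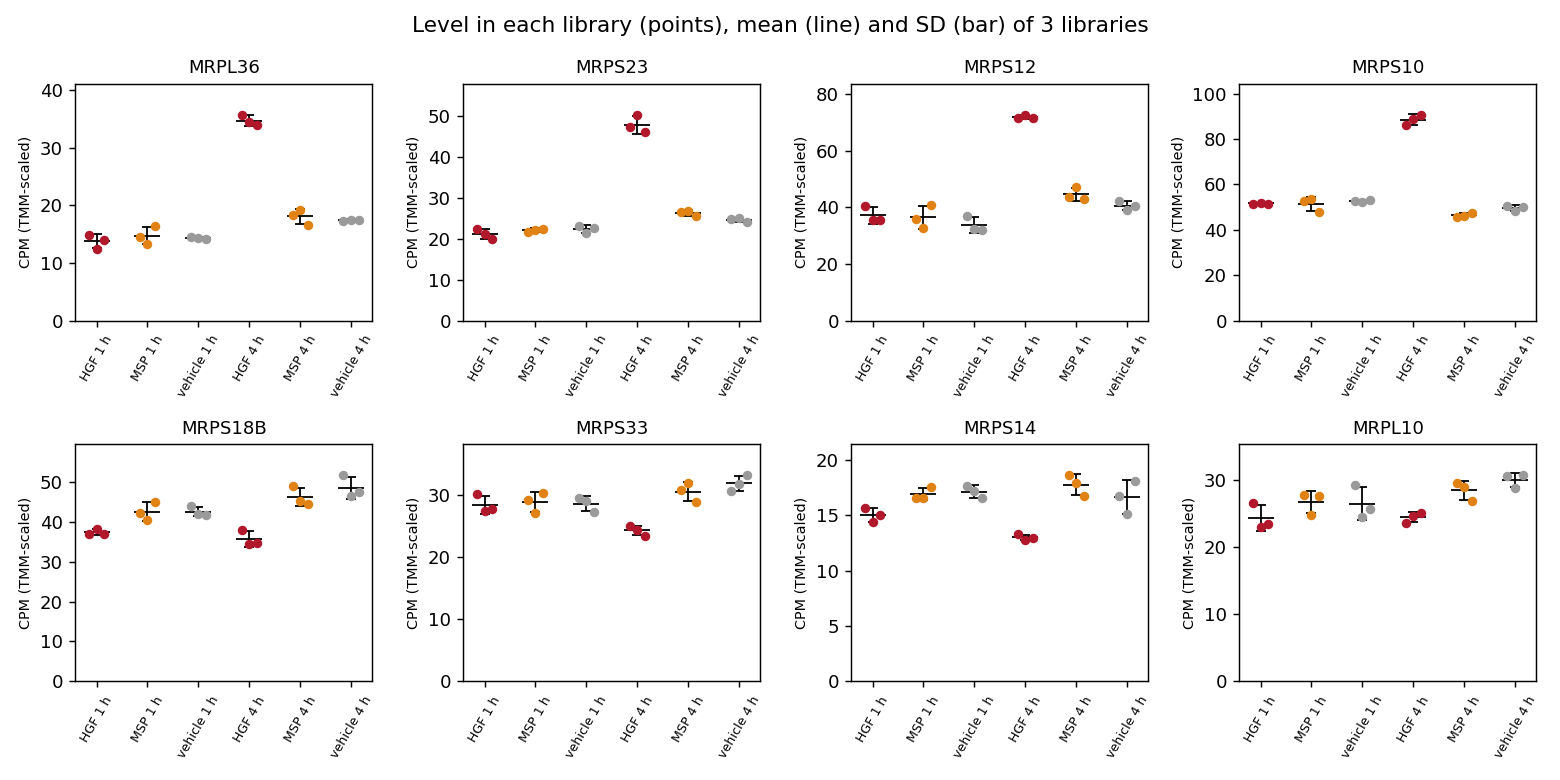
CPM (TMM-scaled, axis from 0) of 8 members in each of the 18 libraries by group, with the mean as a line and the SD as a bar (n = 3). The upper 4 genes are highest in the HGF 4 h libraries and the lower 4 have their HGF 4 h libraries below all vehicle 4 h libraries.

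By structural role, the stalk proteins, which recruit translation factors, did not move together. MRPL10, the stalk base, averaged 24.5 ± 0.72 CPM in HGF 4 h and 30.1 ± 1.0 CPM in vehicle 4 h libraries and was lower with HGF (log2 -0.30 ± 0.071 SE, edgeR adjusted p = 0.000461). At 1 h MRPL10 averaged 24.3 CPM with HGF and 26.5 CPM with vehicle. MRPL11, its neighbour at the stalk base, averaged 44.8 ± 1.4 CPM with HGF and 46.4 ± 1.8 CPM with vehicle (log2 -0.050 ± 0.057 SE, edgeR adjusted p = 0.449), although with library totals it was called lower at -0.34. MRPL12 had too few counts to test. MRPL45, a protein that links the ribosome to the inner membrane, averaged 33.7 ± 1.3 CPM with HGF and 38.8 ± 1.4 CPM with vehicle (log2 -0.20 ± 0.062 SE, edgeR adjusted p = 0.0048). At 1 h MRPL45 averaged 34.0 CPM with HGF and 36.5 CPM with vehicle. Its 2 named pseudogenes held counts equal to 4.75% of its own. MRPL58, a peptidyl-tRNA hydrolase built into the large subunit, averaged 18.2 ± 1.1 CPM with HGF and 13.9 ± 0.60 CPM with vehicle (log2 0.39 ± 0.082 SE, edgeR adjusted p = 0.000122). Its call was lost with library totals, at 0.096. MRPL44, which has a ribonuclease III-like fold, averaged 30.7 ± 2.2 CPM with HGF and 27.6 ± 0.73 CPM with vehicle (log2 0.16 ± 0.064 SE, edgeR adjusted p = 0.032), but it was at -0.14 with library totals and lost its call without vehicle 4 h replicate 1, vehicle 4 h replicate 2 or HGF 4 h replicate 2, and when only the groups compared were fitted.

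The 3 homologous S18 proteins differed from each other. MRPS18A, which sits in the large subunit, averaged 30.03 ± 2.7 CPM in HGF 4 h and 23.2 ± 1.9 CPM in vehicle 4 h libraries (log2 0.37 ± 0.072 SE, edgeR adjusted p = 3.68e-05). MRPS18C, the counterpart of bacterial S18 in the small subunit, averaged 19.2 ± 0.82 CPM with HGF and 15.8 ± 0.35 CPM with vehicle (log2 0.29 ± 0.075 SE, edgeR adjusted p = 0.00138). MRPS18B, also of the small subunit, was the one that fell. MRPS18A and MRPS18B were classed here as having no bacterial counterpart, although they are homologous to MRPS18C. With library totals MRPS18A was at 0.081 and MRPS18C at -0.0053, neither past the threshold, and MRPS18B was at -0.73. Exons of other genes on the opposite strand cover 47.0% of MRPS18A (RSPH9) and 40.2% of MRPS18C (ABRAXAS1), so reads of those genes cannot be told apart without the strand setting of the counting.

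Of the 47 large-subunit genes, 28 were higher and 3 lower, with a median log2 fold change of 0.24. Of the 23 small-subunit genes, 15 were higher and 6 lower, with a median of 0.29. Among 41 members with a bacterial counterpart 27 were higher and 4 lower (median 0.32), and among 29 with none 16 were higher and 5 lower (median 0.18). The difference between these classes was not tested. Across all genes tested 33.1% were higher and 34.8% lower. With library totals the large subunit had 15 higher and 18 lower calls, and the small subunit had 8 and 8. Across all genes these shares were then 21.2% higher and 52.0% lower. Across the 71 members the HGF log2 fold change had a Spearman rho of 0.12 with the vehicle 4 h level and of 0.039 with exon length, given as a description of genes measured in the same libraries. Members called higher had a median vehicle 4 h level of 32.5 CPM, and members called lower had one of 30.95 CPM.

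At 1 h, few members differed between HGF and vehicle. Under TMM scaling 1 member was higher and 4 were lower, while 13.8% of all genes were higher and 7.16% lower by the same test. The members' median log2 fold change was -0.040, against -0.0041 for all genes, and 12 members had an unadjusted p under 0.05. MRPS18A had 27.1, 28.4 and 26.9 CPM in HGF 1 h libraries, against 23.4, 23.1 and 22.7 CPM in vehicle 1 h libraries. The groups did not overlap, and MRPS18A was higher (log2 0.25 ± 0.070 SE, edgeR adjusted p = 0.00856), though with library totals it was at 0.15 and not called. MRPS25, a small-subunit protein with no bacterial counterpart, had 19.5, 17.2 and 19.8 CPM with HGF, against 21.75, 22.79 and 22.03 CPM with vehicle. All HGF libraries were lower (log2 -0.23 ± 0.066 SE, edgeR adjusted p = 0.00888).

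The other 3 falls at 1 h were smaller. MRPL19, at the interface of the subunits in bacteria, averaged 45.3 ± 3.1 CPM in HGF 1 h and 52.4 ± 3.3 CPM in vehicle 1 h libraries (log2 -0.21 ± 0.070 SE, edgeR adjusted p = 0.0336). MRPS18B averaged 37.5 ± 0.72 CPM with HGF and 42.6 ± 1.2 CPM with vehicle (log2 -0.18 ± 0.056 SE, edgeR adjusted p = 0.0163), so it was lower at both times. MRPS11 averaged 25.2 ± 0.63 CPM with HGF and 28.1 ± 0.078 CPM with vehicle (log2 -0.16 ± 0.056 SE, edgeR adjusted p = 0.0386), a call that was lost with no low-count filter (edgeR adjusted p = 0.0612). MRPL19 and MRPS11 then had higher levels in HGF than in vehicle libraries at 4 h, with log2 fold changes of 0.44 and 0.25, both called under TMM scaling and neither called higher with library totals. The count of 4 falls went to 1 without vehicle 1 h replicate 1 and to 2 without any 1 of the HGF 1 h replicates. With library totals, 28 members were lower and none higher, against 21.4% lower and 9.07% higher among all genes, and the median of all genes was -0.11. The members' share of all counts was 0.227 ± 0.0038% in HGF 1 h and 0.248 ± 0.0014% in vehicle 1 h libraries.

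The HGF effect itself was tested for a change between the times. Of the 71 members, 40 had a higher effect at 4 h than at 1 h and 4 had a lower one, with 53.2% of all genes called, 26.8% higher and 26.4% lower. The 4 with a lower effect at 4 h, MRPS33, MRPS18B, MRPS31 and MRPS16, are all genes of the small subunit. With library totals 27 members were higher and 14 lower, against 18.6% higher and 37.9% lower among all genes. Of these 14, 8 were genes of the large subunit and 6 of the small subunit.

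**Figure D4:**
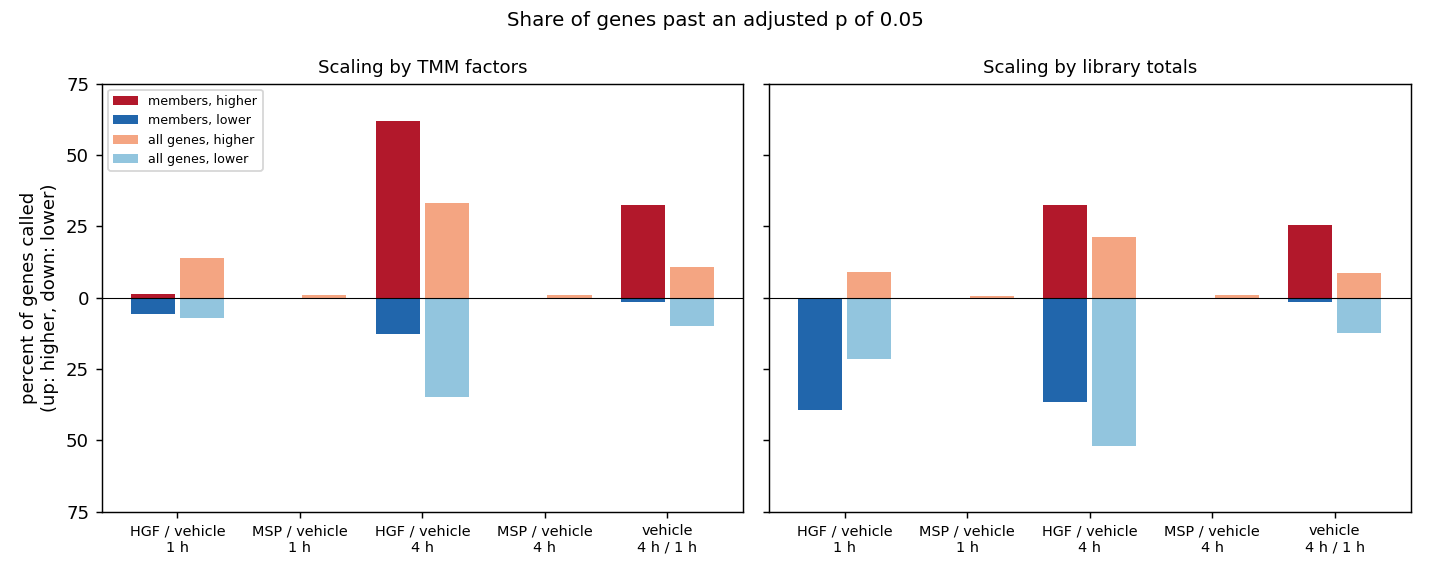
Percentage of the 71 members (dark bars) and of all 16794 genes (light bars) called higher (upward) or lower (downward) in 5 comparisons, with TMM scaling (left panel) and library totals (right panel). Under TMM scaling 4 h after HGF, 62.0% of members and 33.1% of all genes were higher, and in both MSP comparisons no member was called.

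MSP gave no call in these genes. At 4 h none of the 71 members was higher or lower in MSP than in vehicle libraries by edgeR's test, with 5 at an unadjusted p under 0.05, and DESeq2 also called 0. Among all genes 0.774% were higher and 0.292% lower. The members' log2 fold changes lay between -0.10 and 0.18 with a median of 0.023. At 1 h edgeR and DESeq2 again called 0 members, and 0 had an unadjusted p under 0.05, with 0.78% of all genes higher and 0.0536% lower. The count of calls at 1 h was also 0 without any 1 of the MSP 1 h libraries. For scale, MRPL36 had 18.3, 19.2 and 16.7 CPM in MSP 4 h libraries, which overlapped the vehicle 4 h values given above, and MRPS10 had 45.6, 46.2 and 47.5 CPM, all slightly below its vehicle values. The change of the MSP effect between 4 h and 1 h was likewise called for 0 members by edgeR and by DESeq2, with 0 at an unadjusted p under 0.05, and for 0.0476% (higher) and 0.274% (lower) of all genes.

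Set directly against MSP, whose dose differed (100 ng/ml, against 80 ng/ml of HGF), HGF libraries at 4 h had 42 members higher and 9 lower, with 66.4% of all genes called, 32.7% higher and 33.8% lower. The HGF 4 h libraries are the same as in the comparison with vehicle, so the comparisons are not independent. MRPS10 averaged 88.6 ± 2.3 CPM with HGF and 46.5 ± 0.98 CPM with MSP (log2 0.93 ± 0.047 SE, edgeR adjusted p = 2.33e-17). MRPS14 averaged 13.03 ± 0.24 CPM with HGF and 17.8 ± 0.95 CPM with MSP (log2 -0.45 ± 0.073 SE, edgeR adjusted p = 3.33e-06). MRPL36, MRPS23, MRPS18B and MRPS33 were at log2 values of 0.94, 0.86, -0.38 and -0.33, with HGF and MSP libraries separated in each. With library totals 21 members were higher and 27 lower, against 19.8% higher and 53.4% lower among all genes.

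At 1 h, HGF against MSP gave 0 members higher and 4 lower, with 11.4% of all genes higher and 6.36% lower, and 9 members at an unadjusted p under 0.05. DESeq2 also called 0 higher. MRPS25 averaged 18.8 ± 1.4 CPM with HGF and 22.9 ± 1.1 CPM with MSP (log2 -0.28 ± 0.066 SE, edgeR adjusted p = 0.0021). MRPL34 averaged 15.2 ± 1.0 CPM with HGF and 18.1 ± 1.8 CPM with MSP (log2 -0.25 ± 0.071 SE, edgeR adjusted p = 0.0106). MRPS26 averaged 22.2 ± 1.4 CPM with HGF and 25.6 ± 1.5 CPM with MSP (log2 -0.22 ± 0.063 SE, edgeR adjusted p = 0.0147), and the 4th was MRPS18B at -0.19. Only 2 of the 4 calls were made when the fit held these groups alone or without HGF 1 h replicate 3, MSP 1 h replicate 1 or MSP 1 h replicate 3. Without MSP 1 h replicate 2 there were 5 calls. With library totals 21 members were lower and 0 higher, against 18.5% lower and 7.72% higher among all genes.

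Vehicle cells themselves differed between the time points. Between vehicle 4 h and vehicle 1 h libraries, 23 members were higher and 1 was lower, with 10.9% of all genes higher and 9.99% lower, and 15.3% and 14.5% among genes of 10 to 100 CPM. The median log2 difference was 0.13 for the members and -0.00070 for all genes. MRPL24 had 18.04, 18.19 and 16.49 CPM in vehicle 4 h libraries, against 13.3, 13.7 and 11.5 CPM in vehicle 1 h libraries, with no overlap (log2 0.45 ± 0.082 SE, edgeR adjusted p = 0.000202). MRPS26 averaged 32.2 ± 0.94 CPM at 4 h and 24.4 ± 0.62 CPM at 1 h (log2 0.40 ± 0.063 SE, edgeR adjusted p = 3.17e-05). MRPL4, whose bacterial counterpart lines the peptide tunnel, averaged 35.8 ± 0.97 CPM at 4 h and 27.7 ± 0.90 CPM at 1 h (log2 0.37 ± 0.064 SE, edgeR adjusted p = 0.000128).

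The 1 member that was lower at 4 h was MRPL42, at 34.4 ± 1.6 CPM in vehicle 4 h and 41.5 ± 2.4 CPM in vehicle 1 h libraries (log2 -0.27 ± 0.083 SE, edgeR adjusted p = 0.0225). Its call was lost without replicate 1 or replicate 2 of either vehicle group. The 23 higher calls were 17 of 47 large-subunit genes (36.2%) and 6 of 23 small-subunit genes (26.1%), against 10.9% of all genes. By origin they were 18 of 41 members with a bacterial counterpart (43.9%) and 5 of 29 with none (17.2%). The difference between these classes was not tested. The count of 23 went to 15 without vehicle 1 h replicate 2 and also to 15 without vehicle 4 h replicate 1. With library totals 18 members were higher and 1 lower, against 8.77% higher and 12.2% lower among all genes. MRPL24, which was the most increased in vehicle cells, did not pass the test between HGF and vehicle at 4 h, at 16.9 ± 1.5 CPM with HGF and 17.6 ± 0.95 CPM with vehicle (log2 -0.055 ± 0.082 SE, edgeR adjusted p = 0.57). The labels name no batch, and time and collection cannot be told apart.

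Genes that act with the mitochondrial ribosome were described through lists, read for HGF against vehicle at 4 h against the shares for all genes given above. Ribosomal proteins named outside the MRPL and MRPS series were higher: DAP3, PTCD3, AURKAIP1 and CHCHD1 of the small subunit, 4 of 4, and GADD45GIP1 of the large subunit. DAP3, a GTP-binding protein of the small subunit, averaged 107 ± 0.20 CPM with HGF and 71.1 ± 3.2 CPM with vehicle (log2 0.58 ± 0.044 SE, edgeR adjusted p = 4.37e-13). With library totals 2 of the 4 were called higher, and GADD45GIP1 was still called higher.

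Assembly factors split, with 14 of 27 tested higher and 7 lower (11 and 11 with library totals). MPV17L2 averaged 12.2 ± 0.97 CPM with HGF and 5.45 ± 0.39 CPM with vehicle (log2 1.17 ± 0.11 SE, edgeR adjusted p = 4.36e-11). The RNA helicase DHX30 (log2 0.99 ± 0.051 SE) and the RNA-binding protein GRSF1 (log2 0.87 ± 0.044 SE), both of mitochondrial RNA granules, were also higher. TFB1M, the methyltransferase of the small-subunit RNA, fell by 0.40 on the log2 scale (SE 0.085), and the GTPase NOA1 fell by 0.36 (SE 0.062).

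Translation factors were mixed as well, with 8 of 16 higher and 5 lower (4 and 9 with library totals). Elongation factor gene GFM1 averaged 121 ± 3.8 CPM with HGF and 66.9 ± 1.7 CPM with vehicle (log2 0.85 ± 0.045 SE, edgeR adjusted p = 7.83e-17). The release factor gene MTRF1L was at log2 0.94 ± 0.072 SE. Both initiation factor genes were lower: MTIF3 fell by 0.55 on the log2 scale (SE 0.072) and MTIF2 fell by 0.20 (SE 0.053). Aminoacyl-tRNA synthetase genes had 7 of 18 higher and 3 lower (3 and 11 with library totals). GARS1 (log2 1.28 ± 0.047 SE) and KARS1 (log2 0.71 ± 0.039 SE) had the largest rises in that list, and each of these genes also encodes the cytosolic enzyme.

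Genes for transcription of mitochondrial DNA and handling of its RNA had 15 of 19 higher and 2 lower, with a median log2 fold change of 0.50, and 12 higher and 3 lower with library totals. PNPT1, which encodes a polynucleotide phosphorylase, averaged 106 ± 2.8 CPM with HGF and 36.1 ± 3.4 CPM with vehicle (log2 1.56 ± 0.063 SE, edgeR adjusted p = 8.1e-20). The RNA polymerase gene POLRMT was at log2 0.66 ± 0.069 SE, its initiation factor gene TFB2M at 0.93 ± 0.063 SE and the tRNA-processing gene TRMT10C at 1.14 ± 0.094 SE, all called higher. TFAM, which packages mitochondrial DNA, was at 0.29 ± 0.079 SE and called higher under TMM scaling, but at -0.00099 with library totals. MTERF2 fell by 0.74 on the log2 scale (SE 0.17).

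Of 10 tested nuclear regulators, 6 were higher and 3 lower (5 and 4 with library totals). MYC averaged 232 ± 13 CPM with HGF and 77.4 ± 3.0 CPM with vehicle (log2 1.59 ± 0.047 SE, edgeR adjusted p = 3.99e-23). PPRC1, a PGC-1-related coactivator, averaged 134 ± 5.6 CPM with HGF and 44.7 ± 3.6 CPM with vehicle (log2 1.58 ± 0.059 SE, edgeR adjusted p = 1.4e-20). NRF1 was at log2 0.80 ± 0.067 SE and GABPB1, which encodes a beta subunit of GABP, at 0.96 ± 0.067 SE. GABPB2, which encodes another beta subunit, fell by 0.61 on the log2 scale (SE 0.093, edgeR adjusted p = 1.55e-06), and the coactivator gene PPARGC1B fell by 0.26 (SE 0.067, edgeR adjusted p = 0.00125). GABPA, the DNA-binding subunit of the same factor, fell by 0.27 on the log2 scale (SE 0.085), and YY1 was at -0.020 ± 0.039 SE (edgeR adjusted p = 0.668).

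The mRNAs made inside mitochondria had the other direction. All 13 were lower in HGF than in vehicle libraries at 4 h, with a median log2 fold change of -0.27 (-0.56 with library totals). MT-CO1 averaged 16960 ± 350 CPM with HGF and 19770 ± 312 CPM with vehicle (log2 -0.22 ± 0.036 SE, edgeR adjusted p = 2.86e-06), and MT-ATP8 fell by 0.42 on the log2 scale (SE 0.048). Of the ribosomal RNAs, MT-RNR2 of the large subunit fell by 0.19 on the log2 scale (SE 0.033), and MT-RNR1 of the small subunit was at 0.088 ± 0.19 SE, with an edgeR adjusted p of 0.708. The kit was for mRNA, so these ribosomal RNA counts are those of what the library kit captured.

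**Figure D5:**
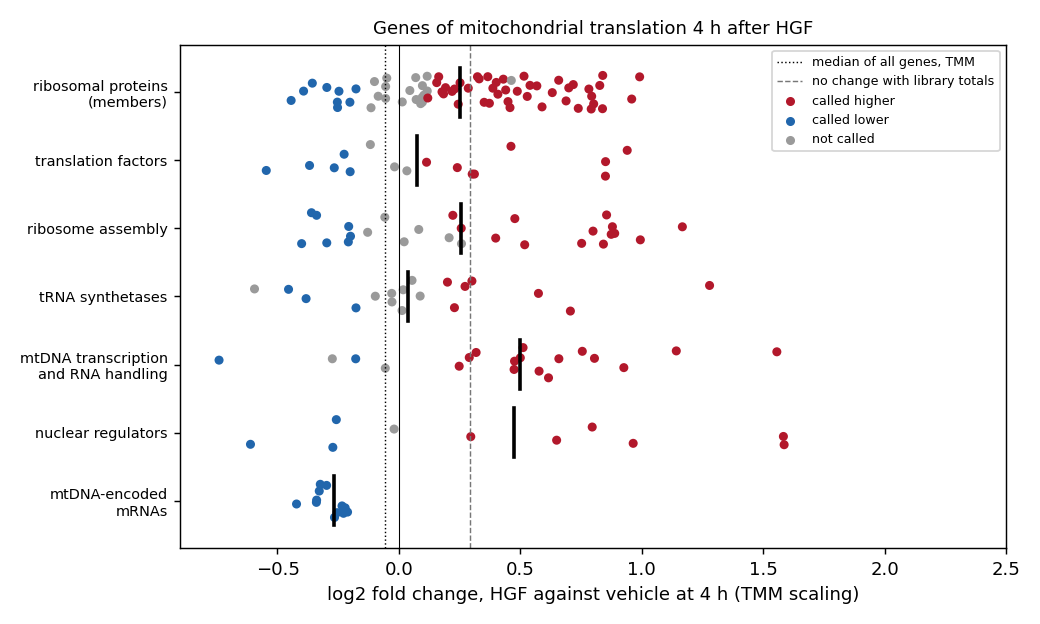
Log2 fold change of HGF against vehicle at 4 h (TMM scaling) for the tested members and 6 lists of related genes, 1 point per gene, with the list median as a thick bar. The dotted line is the median of all genes (-0.059) and the dashed line is the value at which library totals would give no change; the median of the 71 members is 0.25 and that of the 13 mRNAs of the mitochondrial genome is -0.27.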

How the data were processed

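A KAPA mRNA HyperPrep kit was used for the RNA libraries of BxPC-3 cells, per the labels. The values are whole-number counts per gene as deposited by the authors, from reads aligned with STAR and counted with featureCounts (Subread), per the submitters' processing notes; not given in the sources used here are the build, annotation and strand setting. Counts were used for 18 columns and 58395 Ensembl identifiers, of which 57754 matched the gene name table and 58275 matched GENCODE 29 (GRCh38), which gave gene type and overlaps. Of genes with an MRPL or MRPS symbol, 87 of other types were left out.

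Genes passing filterByExpr (minimum count 10, minimum total 15) got TMM factors and were fitted with edgeR 4.0.16 (R 4.3.3, limma 3.58.1), robust quasi-likelihood, 1 mean per group over 18 libraries, residual df 12. The biological coefficient of variation was 5.23%, the square root of edgeR's common dispersion over genes. The 9 comparisons had Benjamini-Hochberg adjusted p-values over 16794 genes, with a threshold of 0.05. The SE is the absolute log2 fold change divided by the square root of F. Alternatives were library totals, DESeq2 1.42.0 size factors and Wald test, no filter, no robust estimation, only the groups compared, a replicate block and leaving out each library. The procedure was tested on simulated counts.

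Named members were the largest rises and falls past the threshold with separated libraries (up to 8 and 8 for HGF at 4 h, 5 and 5 for other ligand comparisons, 3 and 3 elsewhere), fixed role genes, and the 3 highest and lowest levels per kilobase. One listed marker is not reported here. The choice of pathway examples was made with their values in view. The members and lists were chosen with earlier results of these data known. Precision is limited by 3 libraries per group; a count of 0 allows up to 3 counts, for counting error only.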

Additional observations from a re-analysis of the deposited data

Results flagged for a closer look

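The effect of HGF against vehicle differed between 4 h and 1 h for many members, by the interaction term of edgeR's quasi-likelihood fit (adjusted p under 0.05). Of 71 members, 40 had a higher effect at 4 h than at 1 h and 4 a lower one, with 26.8% of all genes higher and 26.4% lower. The 3 largest positive differences were 1.06 ± 0.11 (SE) for MRPL36, 1.04 ± 0.082 for MRPS23 and 0.88 ± 0.081 for MRPL32 on the log2 scale. MRPL36 averaged 34.7 CPM in HGF and 17.5 CPM in vehicle libraries at 4 h, and 13.7 CPM in HGF and 14.4 CPM in vehicle libraries at 1 h. The 3 largest negative differences were -0.38 ± 0.087 for MRPS33, -0.26 ± 0.080 for MRPS18B and -0.25 ± 0.091 for MRPS31, and the 4th member called lower was MRPS16. MRPS31 had an edgeR adjusted p of 0.0219, and its call was lost with no low-count filter (adjusted p = 0.104) and by DESeq2 (adjusted p = 0.0515), and without 6 of the 12 libraries left out in turn.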

How the results depend on the processing

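With library totals, 4 h after HGF, 23 members were higher and 26 lower, with 21.2% of all genes higher and 52.0% lower. Against MSP at 4 h these were 21 and 27, with 19.8% and 53.4% of all genes. At 1 h 21 members were lower against MSP, with 18.5% of all genes lower. Against vehicle at 1 h 28 were lower and 0 higher, with 21.4% of all genes lower and 9.07% higher. The interaction then had 14 members lower, with 37.9% of all genes lower. For HGF against vehicle the median of all genes was -0.35 at 4 h and -0.11 at 1 h. Library totals moved the members' median log2 fold change for HGF against vehicle at 4 h from 0.25 to -0.039. Members with small rises changed sign by construction of the scaling. Among them were MRPL44 (-0.14), MRPS18C (-0.0053), MRPL51 and MRPS34. With only the groups compared, 2 members were lower in HGF than in MSP libraries at 1 h, and the interaction had 2 members lower with no low-count filter and by DESeq2; the cause was not tested. Leaving out 1 library gave 40 to 43 members higher and 8 to 9 lower for HGF at 4 h, and 1 higher and 1 to 3 lower at 1 h. For HGF against MSP it gave 40 to 43 higher and 7 to 10 lower at 4 h and 2 to 5 lower at 1 h. It gave 37 to 41 higher and 2 to 5 lower for the interaction, and 15 to 21 higher and 0 to 1 lower for vehicle over time. Where this left 2 libraries in a group, the spread was shared over all groups. With the replicate number as a block, 44 members were higher and 9 lower for HGF at 4 h, 1 and 4 at 1 h, and 25 and 1 for vehicle over time. MRPL19 at 1 h then had an edgeR adjusted p of 0.0576. In the main fit 33.1% of all genes were higher and 34.8% lower for HGF against vehicle at 4 h, and 13.8% and 7.16% at 1 h. For HGF against MSP these shares were 32.7% and 33.8% at 4 h and 11.4% and 6.36% at 1 h. They were 26.8% and 26.4% for the interaction and 10.9% and 9.99% for vehicle over time. Libraries sharing a number had correlations of -0.046 to 0.093 between their deviations from the group means, so the number was not taken as a pairing.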

Other observations

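Promoter letters by call 4 h after HGF were counted as a description. CCGGAAG was in 15 of 41 windows of members called higher (36.6%), in 5 of 8 of those called lower (62.5%) and in 6 of 13 of those not called (46.2%). AANATGGCG was in 11 of the 41 windows of members called higher, 2 of the 8 of those called lower and 3 of the 13 of those not called. The median GC content of the windows was 61.0% for members called higher, 59.2% for those called lower and 60.3% for those not called. It was 60.3% for all tested members and 58.3% for all RefSeq windows, and was not computed for tested protein-coding genes.

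Among 39 tested members with no named pseudogene, 25 were higher and 3 lower in HGF than in vehicle libraries at 4 h, with a median log2 fold change of 0.37. Among 37 tested members with no overlap on either strand, 22 were higher and 7 lower, with a median of 0.24. Across all genes tested 33.1% were higher and 34.8% lower. With library totals these groups had 14 higher and 12 lower, and 14 higher and 15 lower, against 21.2% higher and 52.0% lower among all genes.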
